A study of Mus musculus with 6 samples.

Results

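The genes described here are 10 genes of excitation-contraction coupling and calcium handling in skeletal muscle, namely Ryr1, Cacna1s, Atp2a1, Atp2a2, Sln, Casq1, Casq2, Pvalb, Trdn and Jph1. They were taken by symbol from the 34714 gene symbols in the count table for their known roles. The rule uses no measured value, but it was set with earlier results of these data known. The 6 RNA-seq libraries came from gastrocnemius (Gas) muscle, 3 of WT mice and 3 of M92KO mice. All mice were 8 weeks of age, and their labels name no treatment. The paper used male M92KO mice and describes an overnight fast before tissue was taken. Whether the sequenced mice had been run on a treadmill is not given in the sources used here. M92KO mice carry a global deletion of miR-92b, so that tissues other than muscle lack it too, and WT mice were age-matched C57BL/6 mice. The paper does not state the background strain of the M92KO mice. Whether the WT mice were littermates is not given in the sources used here. The labels number the libraries within each group as replicates and do not name animals, so p-values measure the spread between these libraries. Mir92b itself was not analysed here. The comparison of M92KO with WT Gas muscle asks how the muscle transcriptome differs without miR-92b.

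In a muscle fibre, depolarization of the T-tubule moves the voltage sensor of the dihydropyridine receptor, which opens the ryanodine receptor of the sarcoplasmic reticulum (SR) and releases calcium onto the contractile filaments. SERCA pumps return calcium to the SR, where calsequestrin binds it, and parvalbumin binds it in the cytosol of fast fibres. Fast fibres use SERCA1 (Atp2a1), while slow fibres and the heart use SERCA2 (Atp2a2). Calsequestrin-1 (Casq1) is the main form in skeletal muscle, calsequestrin-2 (Casq2) is the form of the heart, and slow fibres hold both.

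The deleted hairpin gives a pair of mature miRNAs, which are shown because their seeds (bases 2 to 8, in capitals) set the letters searched for in the members. Both are from RefSeq (GRCm38.p6), on the minus strand of chromosome 3, at chr3:89227126-89227147 for miR-92b-3p and chr3:89227165-89227188 for miR-92b-5p.
miR-92b-3p: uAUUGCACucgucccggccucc
miR-92b-5p: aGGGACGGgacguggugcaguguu

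Matches of 7 letters to the seeds were searched on the transcript strand of the longest annotated 3′-UTR of each gene in GENCODE M21 (GRCm38). They were GTGCAAT or TGCAATA for miR-92b-3p and CCGTCCC or CGTCCCA for miR-92b-5p, whose letters overlap within each pair. The first of each pair matches the whole seed. The second matches the seed without its last base and ends in an added A. Of the 10 members, 1 held a match to miR-92b-3p and 0 held a match to miR-92b-5p. Of the 13662 genes tested that had an annotated 3′-UTR, 13.8% held a match to miR-92b-3p and 5.57% a match to miR-92b-5p. The members' 3′-UTRs ran from 114 to 2541 bases with a median of 752 bases, while the median of all 13662 genes was 1188 bases. Those of Jph1 (2541 bases) and Trdn (2191 bases) were longer than the median of all genes. The match lies in the 3′-UTR of Trdn (triadin, an SR membrane protein of the junction that binds the ryanodine receptor and calsequestrin), at chr10:33475055-33475061 on the plus strand of GRCm38, and is shown with its flanks and the matching letters in capitals.
Trdn site: ctaaatccctTGCAATAttcttaatga

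The Trdn match is of the second kind, so it does not cover the last base of the seed. A match is a run of letters and not a shown binding site.

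The 6 libraries held between 33160508 and 48209846 counts and the largest M92KO library (37019640) was smaller than the smallest WT library (38246649). Levels are in CPM, which are counts scaled to a common library size after TMM normalization. On this scale 3 counts, taken as the floor, were worth 0.0629 to 0.0916 CPM, and this covers counting error only. After genes with low counts were removed, 15788 genes were tested with edgeR's quasi-likelihood test, and all 10 members were among them. The members together took from 3.70% to 4.66% of the counts of a library. Over all genes tested, 863 (5.47%) were higher and 1092 (6.92%) lower in M92KO muscle at an unadjusted p-value of 0.05, no gene passed after adjustment, and the median log2 fold change was -8.07e-05.

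Pvalb, Atp2a1 and Casq1 were the abundant messages in this muscle. On a scale of CPM per kilobase of the longest coding transcript, the mean over the 6 libraries was highest for Pvalb (parvalbumin), at 7972, with a range of 6786 to 9664. Atp2a1 came next at 7255 (6777 to 8395), and the ranges of these neighbours overlapped. Casq1, the main calcium store protein of the SR, had 1514 (1352 to 1803), 4.79-fold less than Atp2a1 and without overlap. Below it, Ryr1 (the calcium release channel) had 175, Trdn 160 and Cacna1s (the pore and voltage sensor of the dihydropyridine receptor) 138, and the ranges of neighbours in this order overlapped. Jph1 (junctophilin-1, which ties the SR to the T-tubule) had 88.7, Casq2 34.5, Atp2a2 13.3 and Sln (sarcolipin, a small peptide that inhibits SERCA pumps) 0.598, each without overlap with its neighbours. Within a library and per kilobase, Atp2a1 stood between 505-fold and 690-fold above Atp2a2, with a median of 529-fold. Casq1 stood between 30.8-fold and 75.8-fold above Casq2, with a median of 40.0-fold. Sln was counted 23 to 37 times in a library, so that its level rests on few reads.

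**Figure D1:**
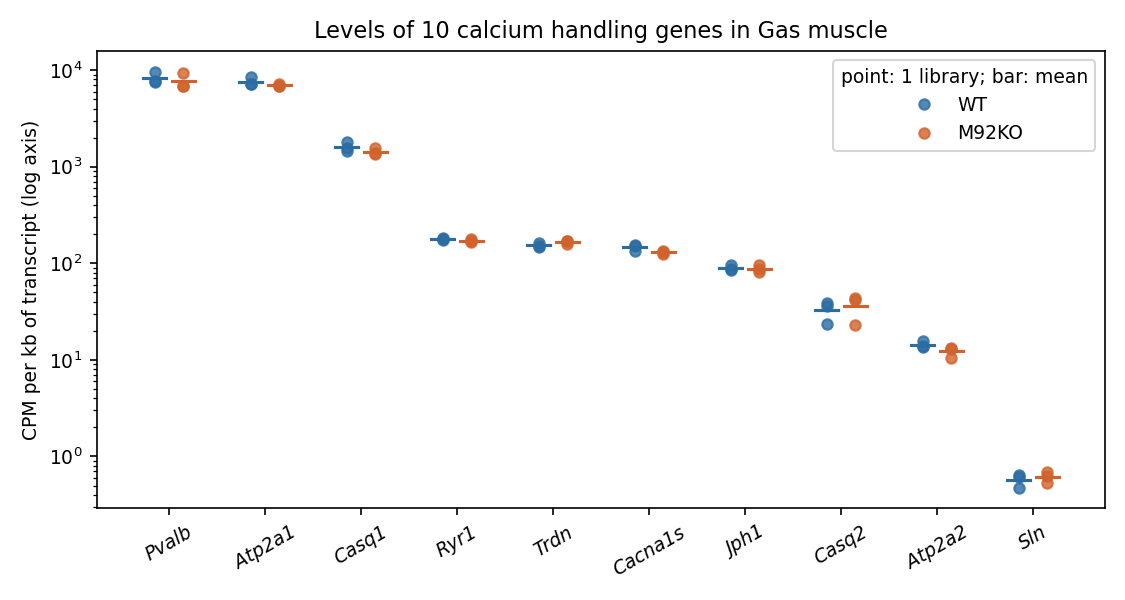
Level of each member in each library, in CPM per kilobase of the longest coding transcript on a log10 axis, with WT and M92KO libraries as separate points. Pvalb and Atp2a1 are at the top with means of 7972 and 7255, Sln is at the bottom with a mean of 0.598, and the groups overlap for all members except Cacna1s and Atp2a2.

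No member passed the test between the genotypes. With edgeR, 0 of the 10 members had an adjusted p-value under 0.05, and 0 of 10 had an unadjusted p-value under 0.05, while 12.4% of all genes tested had one. DESeq2's Wald test and the study's own steps (quantile normalization, log2 and limma) each called 1 member at an unadjusted p-value of 0.05, Cacna1s in both. The shares over all genes were 10.9% of 15788 with DESeq2 and 6.59% of 34714 symbols with the study's steps. The study's steps had no filter on low counts, so these shares are over unlike sets. After adjustment each called 0 members, beside 2.19% of 14253 genes with DESeq2 and 0.121% of 34714 symbols with the study's steps. Without a filter on low counts, 2 members (Cacna1s and Atp2a2) were called in edgeR beside 9.5% of 23231 genes, and 0 after adjustment beside 0.0258%. The log2 fold change was below 0 in 7 members and above 0 in 3, with a median of -0.08. In 2 of the 10 members the M92KO values did not overlap the WT values, against 18.4% of all genes tested. Both had M92KO below WT, as did 9.58% of all genes, and 0 members had M92KO above WT, as did 8.77%. The exact permutation test of 3 against 3 libraries cannot go below 0.1 (two-sided). The count moved with single libraries. It was 1 without WT replicate 1 (Cacna1s), beside 10% of all genes, and 1 without M92KO replicate 2 (Atp2a2), beside 10.5%, and both were lower. Without M92KO replicate 1, 3 members had an unadjusted p-value under 0.05 (Cacna1s, Casq1 and Pvalb, all lower), beside 18.6% of all genes, and 0 had an adjusted one, beside 2.5%.

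**Figure D2:**
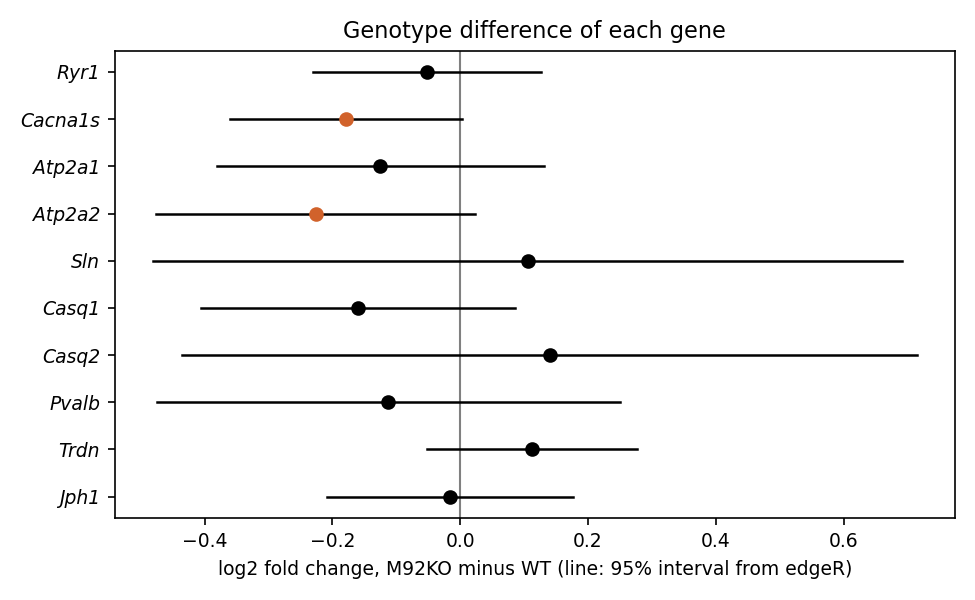
Log2 fold change of M92KO over WT for each member with its 95% interval from edgeR's quasi-likelihood fit (horizontal lines), with members whose groups do not overlap in orange. Every interval includes 0, those of Casq2 and Sln are widest, and that of Cacna1s reaches from -0.36 to 0.0035.

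Of the release machinery, Cacna1s came nearest to the threshold. Its level was 839.5, 945 and 966 CPM in WT replicates 1 to 3 and 819.8, 783 and 828 CPM in M92KO replicates 1 to 3. All 3 M92KO libraries lay below all 3 WT libraries, the nearest values being WT replicate 1 and M92KO replicate 3. The means were 917 ± 67.9 CPM in WT and 810.3 ± 24.1 CPM in M92KO muscle (SD, n = 3 each). The log2 fold change was -0.18 (SE 0.080, 95% interval -0.36 to 0.0035), with an adjusted p-value of 0.413 in edgeR and an exact permutation p-value of 0.1. This estimate ranged from -0.24 to -0.14 when each library was left out in turn. It was -0.124 with length offsets and -0.115 with length and GC offsets (unadjusted p-values 0.185 and 0.190 in edgeR). With a replicate block the unadjusted p-value was 0.108 in edgeR. Of 16 alternative runs, 5 gave Cacna1s an unadjusted p-value under 0.05.

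Ryr1 varied least of all members, from 2569 to 2831 CPM over the 6 libraries. Its means of 2739 ± 90.0 CPM in WT and 2642 ± 86.8 CPM in M92KO muscle (SD, n = 3 each) differed by a log2 fold change of -0.05 (SE 0.078, 95% interval -0.23 to 0.13, adjusted p-value 0.837 in edgeR). The interval corresponds to between 0.853-fold and 1.09-fold of the WT level.

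Of Ryr1, Cacna1s, Jph1 and Trdn, the genes of the junction, Trdn was the one with a higher mean in M92KO muscle. Its level was 671, 681 and 728 CPM in WT libraries and 770.1, 760.3 and 717 CPM in M92KO libraries. The highest WT library lay above the lowest M92KO library, so the groups overlapped. The means were 693 ± 30.6 and 749 ± 28.4 CPM (SD, n = 3 each), with a log2 fold change of 0.11 (SE 0.072, 95% interval -0.05 to 0.28, adjusted p-value 0.590 in edgeR). Jph1 lay between 394 and 462 CPM in all libraries, with a log2 fold change of -0.02 (SE 0.084, 95% interval -0.21 to 0.18).

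Of the SERCA pumps, Atp2a1 was between 23565 and 29190 CPM. Its highest value was in WT replicate 3, and the other 5 libraries lay between 23565 and 25068 CPM. Its log2 fold change was -0.13 (SE 0.11, 95% interval -0.38 to 0.13, adjusted p-value 0.709 in edgeR), and -0.046 without WT replicate 3. Atp2a2 was 62.3, 60.7 and 70.6 CPM in WT libraries and 46.5, 60.2 and 58.9 CPM in M92KO libraries. The groups did not overlap, but WT replicate 2 and M92KO replicate 2 were 60.7 and 60.2 CPM, and the low value was that of M92KO replicate 1 alone. Atp2a2 had a log2 fold change of -0.23 (SE 0.11, 95% interval -0.48 to 0.02), with an adjusted p-value of 0.459 in edgeR and an exact permutation p-value of 0.1. Without M92KO replicate 1 the log2 fold change was -0.12.

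Reads on Sln, the SERCA inhibitor, numbered 37, 33 and 30 in WT libraries and 29, 23 and 33 in M92KO libraries. In CPM these were 0.761 ± 0.118 and 0.816 ± 0.105 (SD, n = 3 each). The 95% interval of the log2 fold change of Sln, -0.48 to 0.69, corresponds to between 0.717-fold and 1.62-fold of the WT level. Differences inside this interval are compatible with these libraries (n = 3 each). The log2 fold change itself was 0.11 (SE 0.26).

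Casq1 was 2666, 2855 and 3330.5 CPM in WT libraries and 2875, 2552 and 2498 CPM in M92KO libraries. The groups overlapped, with the highest value in WT replicate 3 and the next in M92KO replicate 1. Its log2 fold change was -0.16 (SE 0.11, 95% interval -0.41 to 0.09, adjusted p-value 0.609 in edgeR), and -0.07 without WT replicate 3.

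Casq2 varied most, with a highest value 1.91-fold above the lowest. It was 91.8, 99.1 and 60.8 CPM in WT libraries and 58.7, 106 and 112 CPM in M92KO libraries. Each group held 1 library near 60 CPM, WT replicate 3 and M92KO replicate 1, and the other 4 lay between 91.8 and 112 CPM. For Casq2 it came to a log2 fold change of 0.14 (SE 0.25, 95% interval -0.43 to 0.71, adjusted p-value 0.868 in edgeR), and leaving out single libraries moved it from -0.05 without WT replicate 3 to 0.38 without M92KO replicate 1.

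Pvalb, the cytosolic buffer of fast fibres, showed the mirror image over the same libraries. It was 7379, 7457 and 9442 CPM in WT libraries and 9178, 6648 and 6630 CPM in M92KO libraries. WT replicate 3 and M92KO replicate 1 were the high ones, and the other 4 lay between 6630 and 7457 CPM. The log2 fold change was -0.11 (SE 0.16, 95% interval -0.47 to 0.25, adjusted p-value 0.828 in edgeR), and ranged from -0.29 without M92KO replicate 1 to 0.01 without WT replicate 3.

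**Figure D3:**
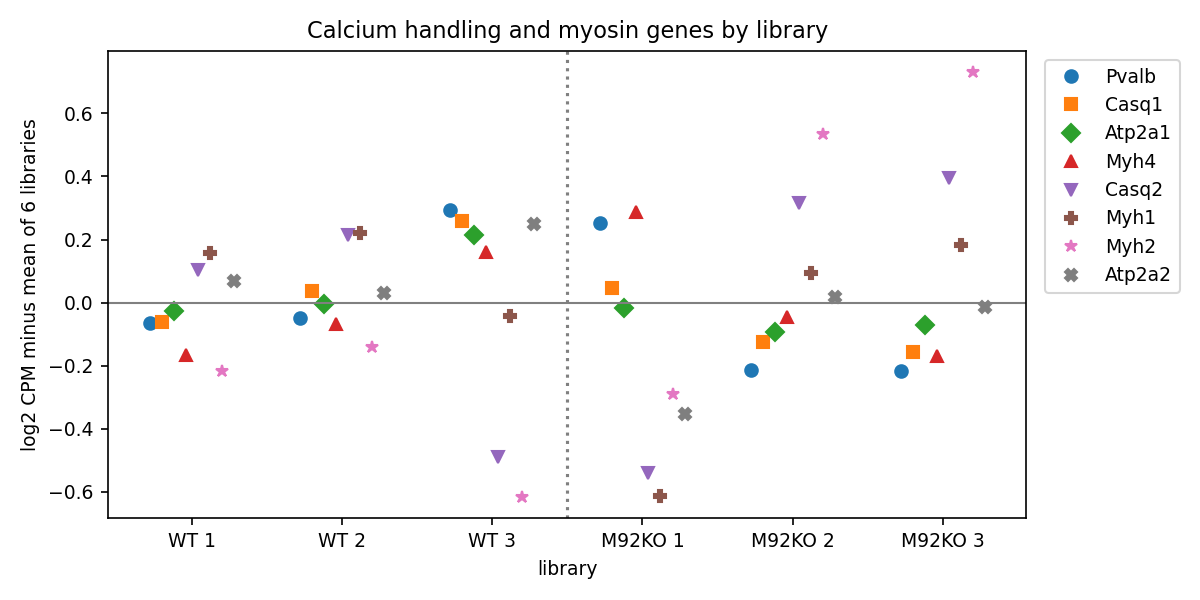
Deviation of each gene's log2 CPM from its mean over the 6 libraries, for members and myosin heavy chains, by library. In WT replicate 3 and M92KO replicate 1, Pvalb and Myh4 are above their means while Casq2 and Myh1 are below. Not all genes shown do so. Atp2a2 is above its mean in WT replicate 3 (0.25) and below it in M92KO replicate 1 (-0.35), and Atp2a1 has 0.21 and -0.02.

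The same libraries stood apart in the myosin heavy chains, which mark fibre types. Myh4, of the fastest (2B) fibres, was highest in M92KO replicate 1 (31515 CPM) and WT replicate 3 (28844 CPM), against 22945 to 25007 CPM in the others. Myh1, of 2X fibres, was lowest in the same libraries, at 9664 and 14346 CPM, against 15781 to 17205 CPM. Myh2, of 2A fibres, was lowest in WT replicate 3 (1612 CPM) and highest in M92KO replicates 2 and 3 (3575 and 4099 CPM). In bulk muscle, fewer fibres of a type and less RNA per fibre cannot be told apart. When WT replicate 3 and M92KO replicate 1 were both left out, a choice made after their values were seen, 3 members had an unadjusted p-value under 0.05, beside 15.4% of all genes. These were Casq2 (log2 fold change 0.20), Pvalb (-0.16) and Trdn (0.13), and 0 members had an adjusted one, beside 1.09% of all genes.

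Markers of other cells that express some members were read beside them. Of 9 slow fibre markers, 2 were higher and 1 lower in M92KO muscle at an unadjusted p-value of 0.05. Their summed levels were 1314 to 1679 CPM in WT and 1445 to 2599.8 CPM in M92KO libraries. Their log2 fold changes had a median of -0.22 and ranged from -0.61 to 0.78, while the sum weighs abundant genes most. Myh7, which defines slow fibres, lay between 2.47 and 12.7 CPM. Of 9 fast fibre markers, 1 was higher and 0 lower, with summed levels of 86530 to 94286 and 88339 to 95847 CPM. Of 6 heart markers, 4 passed the filter on low counts, of which 0 were higher and 1 lower. Summed levels of the 6 were 288 to 489.7 CPM in WT and 185 to 295 CPM in M92KO libraries. Nppb was at 0 counts in all 6 libraries. The list also held Actc1, which the paper measured in Gas muscle among its myofibre markers. Of 6 smooth muscle markers, 1 was higher and 0 lower, with summed levels of 2389 to 2473 and 2761 to 2857 CPM, of which Des, also a muscle fibre gene, was the most. Of 5 fibroblast markers, 2 were lower, with summed levels of 1373 to 1741 CPM and 906 to 1290.5 CPM. Of 5 fat cell and 5 red cell markers tested, 0 were called. Log2 fold changes were 0.04 to 0.97 (median 0.62) for the fat cell and 0.57 to 0.70 (median 0.66) for the red cell markers. Lower markers were 1 of 4 endothelial, 2 of 5 nerve and Schwann cell and 1 of 4 leukocyte ones. Over all genes tested, 5.47% were higher and 6.92% lower. The part of these cells in the levels of the members was not tested.

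A ratio of counts of 2 genes within a library does not depend on the scaling between libraries, and 6 such ratios were compared with exact permutation tests over the 6 libraries. The ratio of Trdn to Ryr1 was 0.245, 0.257 and 0.257 in WT libraries and 0.281, 0.296 and 0.274 in M92KO libraries. All M92KO ratios were above all WT ratios, and this was the only ratio of the 6 whose groups did not overlap. On the log2 scale it was -1.98 ± 0.038 in WT and -1.82 ± 0.057 in M92KO muscle (SD, n = 3 each), a difference of 0.16 or 1.12-fold, with an exact permutation p-value of 0.1, the smallest possible, and 0.6 after Benjamini-Hochberg adjustment over the 6 ratios. The difference stayed between 0.13 and 0.19 when each library was left out.

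The ratios of Atp2a2 to Atp2a1 and of Casq2 to Casq1 overlapped between the genotypes. For 1 count of Atp2a2 there were 396, 413 and 413 counts of Atp2a1 in WT libraries and 535, 391 and 407 in M92KO libraries, a log2 difference in Atp2a2 over Atp2a1 of -0.11 (exact permutation p-value 0.9). M92KO replicate 1 alone stood apart here. For 1 count of Casq2 there were 29.0, 28.8 and 54.7 counts of Casq1 in WT libraries and 49.0, 24.0 and 22.2 in M92KO libraries, a log2 difference in Casq2 over Casq1 of 0.27 (exact permutation p-value 0.5). The ratio of Ryr1 to Cacna1s was 3.26, 2.81 and 2.93 in WT and 3.34, 3.28 and 3.16 in M92KO libraries, a log2 difference of 0.12 (exact permutation p-value 0.2). Sln over Atp2a1 differed by 0.23 (exact permutation p-value 0.5) and Pvalb over Atp2a1 by 0.001 (exact permutation p-value 1.0), both on the log2 scale.

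**Figure D4:**
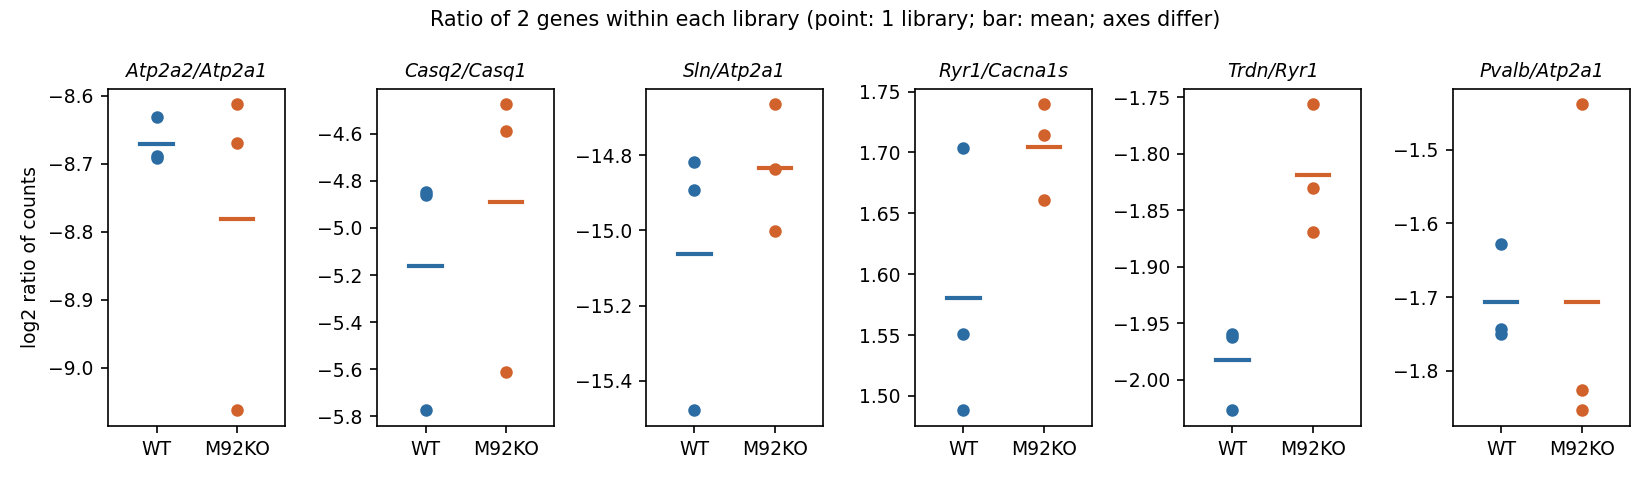
Log2 ratio of the counts of 2 members within each library, for 6 pairs, with the points of WT and M92KO libraries and the mean of each group as a line. Only the ratio of Trdn to Ryr1 has all M92KO points (mean -1.82) above all WT points (mean -1.98).

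Partners of the members in calcium handling were read from 7 lists of 87 genes, of which 81 passed the filter on low counts. In these lists 7 genes were higher and 5 lower at an unadjusted p-value of 0.05 (14.8%, against 12.4% of all genes tested), the median log2 fold change was 0.03, and 0 genes had an adjusted p-value under 0.05 in edgeR.

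Of 24 partners of the triad and the dihydropyridine receptor, 3 were higher and 1 lower. Asph, whose locus also encodes junctin, the partner of triadin and calsequestrin in the SR membrane, was 307, 305 and 308 CPM in WT libraries and 351, 380.0 and 385 CPM in M92KO libraries. All M92KO libraries were above all WT libraries, and the WT libraries differed little. The means were 307 ± 1.53 and 372 ± 18.6 CPM (SD, n = 3 each), with a log2 fold change of 0.28 (95% interval 0.12 to 0.43) and an adjusted p-value of 0.188 in edgeR. Asph had adjusted p-values of 0.0215 with DESeq2's Wald test and 0.0302 with the study's steps in limma. In edgeR without M92KO replicate 1 it had 0.0174. Of all genes, 2.19%, 0.121% and 2.5% were under 0.05 in these runs. Over 16 alternative runs the adjusted p-value of Asph ranged from 0.0174 to 0.590, the highest in edgeR without WT replicate 2. Its unadjusted p-value was under 0.05 in all 16. Counts per gene do not separate junctin from the enzyme aspartyl hydroxylase made from the same locus.

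Bin1, which shapes T-tubule membrane, was 549 ± 3.52 CPM in WT and 624 ± 37.5 CPM in M92KO muscle (SD, n = 3 each), a log2 fold change of 0.19 with an adjusted p-value of 0.356 in edgeR. Dysf (dysferlin, a membrane repair protein also found at T-tubules) was 104 ± 3.25 and 118 ± 7.49 CPM, with an adjusted p-value of 0.373 in edgeR. Cacnb1, the beta subunit that carries Cacna1s to the membrane, was 155, 164 and 178 CPM in WT libraries and 151, 131 and 135 CPM in M92KO libraries. Its groups did not overlap, and its means of 166 ± 11.6 and 139 ± 10.5 CPM (SD, n = 3 each) gave an adjusted p-value of 0.283 in edgeR.

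Of 10 genes of calcium extrusion and the IP3 receptors, 1 was higher and 3 lower. Itpr1 and Itpr2, IP3-gated channels of the reticulum, had log2 fold changes of -0.25 and -0.21 (adjusted p-values 0.258 and 0.372 in edgeR). Slc8a3, a sodium-calcium exchanger of muscle, was 74.1, 86.1 and 94.0 CPM in WT and 79.1, 58.5 and 61.7 CPM in M92KO muscle (log2 fold change -0.35, adjusted p-value 0.337 in edgeR), with M92KO replicate 1 inside the WT range. Slc8a1, the exchanger prominent in heart, was 40.0 ± 1.17 and 48.2 ± 7.76 CPM (adjusted p-value 0.387 in edgeR). Without M92KO replicate 1, Slc8a3 and Slc8a1 had adjusted p-values of 0.0477 and 0.0218 in edgeR, beside 2.5% of all genes under 0.05. Without M92KO replicate 2, their unadjusted p-values in edgeR were 0.090 and 0.154. Of 16 alternative runs, 8 gave Slc8a3 and 9 gave Slc8a1 an unadjusted p-value under 0.05. Of the 12 list genes called at an unadjusted p-value of 0.05, 9 held no match to the miR-92b-3p seed, and Slc8a1, Itpr1 and Itpr2 held 3, 1 and 2 matches in their 3′-UTRs, of which that of Slc8a1 is 15586 bases long. Of all 81 list genes tested, 19 (23.5%) held a match.

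Of 8 other buffers tested, 2 were higher. Hspa5 (BiP, a chaperone of the reticulum that binds calcium) was 224 ± 18.7 CPM in WT and 281 ± 36.0 CPM in M92KO muscle (SD, n = 3 each), a log2 fold change of 0.33 with an adjusted p-value of 0.281 in edgeR. Calr (calreticulin) was 149 ± 9.52 and 169 ± 10.6 CPM, with an adjusted p-value of 0.401 in edgeR. Of 19 genes of calcineurin, NFAT and CaMK signalling, Ppp3cc, a catalytic subunit of calcineurin, was higher (32.2 ± 0.333 and 36.1 ± 2.14 CPM, SD, n = 3 each, adjusted p-value 0.388 in edgeR) and 0 were lower. Of 9 genes of mitochondrial calcium uptake, 0 were called, and the most abundant, Letm1 and Mcur1, had log2 fold changes of -0.03 and -0.04. Of 3 other SERCA pumps and regulatory peptides tested, 0 were called. Among them Mrln (myoregulin, a SERCA inhibitor of skeletal muscle) lay between 21.4 and 38.0 CPM and Atp2a3 between 17.1 and 23.1 CPM.

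**Figure D5:**
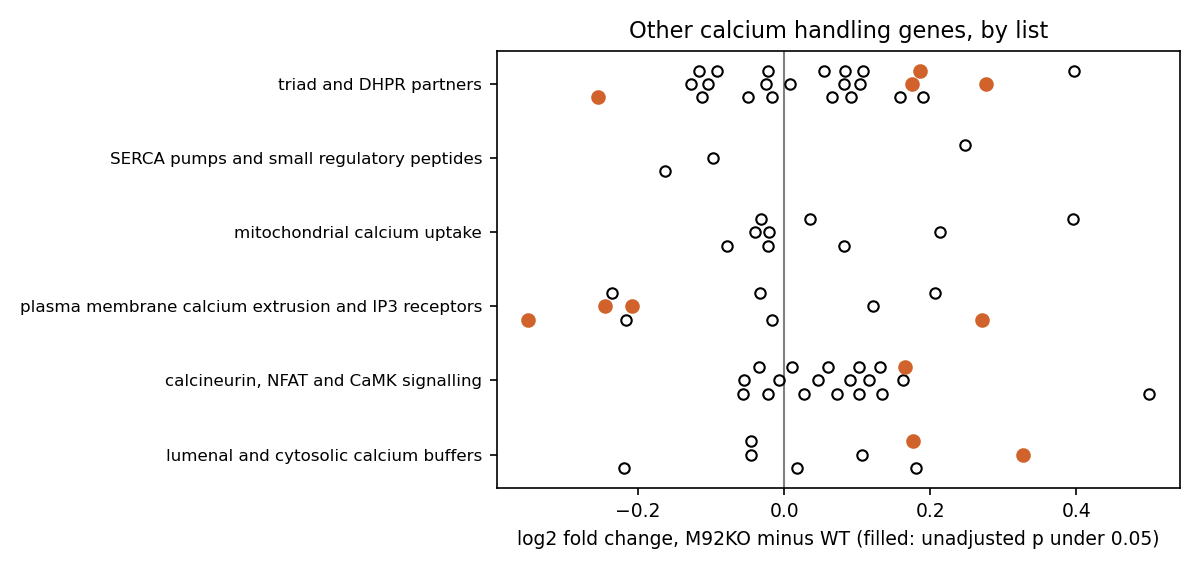
Log2 fold change of M92KO over WT for each gene of 6 of the 7 lists of calcium handling genes outside the members (points), filled in orange where the unadjusted p-value was under 0.05. Of the 73 genes shown, 7 filled points lie above 0 and 4 below.

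The genes whose log2 CPM followed the SERCA members most closely over the 6 libraries were sought among 8736 genes with a mean of at least 10 CPM. For Atp2a1 they were Mat2a, Klf13 and Mocs2, with Pearson r of 0.99, 0.99 and 0.98. For Atp2a2 they were Foxo3, Nr3c1 and Ing3, each with r of 0.99. For Sln they were Gm5148, Adsl and Rph3al, with r of 0.99, 0.98 and 0.97. These are the highest of 8736 values over 6 libraries that share a normalization, and 26, 36 and 11 genes had r above 0.95 with Atp2a1, Atp2a2 and Sln.

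By position in GRCm38, Ryr1 (chr7:29003344-29125179) and Atp2a1 (chr7:126445858-126463108) lie on chromosome 7, and Cacna1s (chr1:136052750-136119822), Casq1 (chr1:172209894-172219868) and Jph1 (chr1:16964560-17097889) on chromosome 1. The others are Atp2a2 (chr5:122453513-122502225), Sln (chr9:53850164-53854560), Casq2 (chr3:102086415-102146514), Pvalb (chr15:78191114-78206400) and Trdn (chr10:33080554-33476709). Casq2 is the only member on chromosome 3, which also held the deleted hairpin. Whether other sequence of this chromosome differed between the groups was not tested. Exons of Ryr1, Cacna1s, Atp2a1, Atp2a2, Casq1 and Jph1 overlap an annotated gene on the opposite strand, and whether counting used strand is not given in the sources used here. Where both were counted, the overlapping gene had at most 0.761% of the member's level, which was Gm17224 beside Casq1. The genes overlapping Cacna1s, Atp2a2 and Jph1 were not in the count table. The overlap covers 1309 of 6550 exon bases of Cacna1s and 763 of 3477 of Atp2a1, and its effect on the members' counts was not tested. Sln, Casq2, Pvalb and Trdn overlap no other gene's exons.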

How the data were processed

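The authors deposited raw counts for 34714 gene symbols in 6 libraries made with a SMARTer kit. The submitters' processing notes name the builds GRCm38 and mm10. The aligner, the counting program and the strandedness of the counting are not given in the sources used here. Library totals lay between 33160508 and 48209846 counts.

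From these counts, genes were filtered with filterByExpr (minimum count 10, minimum total 15), normalized with TMM and compared by the quasi-likelihood test of edgeR 4.0.16 in R 4.3.3 without a covariate, with Benjamini-Hochberg adjustment over all 15788 genes tested. Single genes and ratios (0.5 added to each count) were compared with two-sided exact permutation tests over the 6 libraries. The study's quantile normalization, log2 and limma steps (limma 3.58.1) and DESeq2 1.42.0 were alternatives, since the values are counts. Further alternatives were edgeR with size factors from DESeq2, other filters, the replicate number as a block, offsets for transcript length (lowess span 0.3) and leaving out each library. Offsets for length and GC content together, length offsets with the block, and leaving out WT replicate 3 with M92KO replicate 1 were added after seeing the data. Scripts were tested on simulated data. Replicate pairs differed by more than sampling noise, and no library was found to be a duplicate.

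Positions, transcripts and 3′-UTRs came from GENCODE M21, to which 25731 symbols matched directly and 422 by a synonym, with 8561 unmatched. All members matched. In the lists, Arln and Erln had no match by symbol. The results of 1 list by itself are not reported here, and its genes stay in the counts over all lists. The members and lists were chosen with earlier results of these data known. Named genes were all members, of each list those with unadjusted p-values under 0.05 and otherwise the 2 most abundant, and the 3 genes most like Atp2a1, Atp2a2 and Sln. Myosin heavy chains and other markers were named after their values were seen. Python 3.11.15 was used for tables (pandas 2.3.3, numpy 2.4.6), permutation tests (scipy 1.17.1) and plots (matplotlib 3.10.9).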

Additional observations from a re-analysis of the deposited data

How the results depend on the processing

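In every alternative run, 0 of the 10 members had an adjusted p-value under 0.05. Members at an unadjusted p-value of 0.05 numbered 1 with DESeq2's Wald test and 1 with the study's steps in limma (Cacna1s in both), 2 without a filter on low counts (Cacna1s and Atp2a2), 3 without WT replicate 3 and M92KO replicate 1 together, and 0 to 3 when single libraries were left out. Over all genes, adjusted calls, 0 in edgeR, numbered 312 with DESeq2, 42 with the study's steps, 6 without a filter, 173 without both libraries, and 0 to 401 with single libraries left out. Unadjusted calls over all genes then ranged from 1222 (without WT replicate 2) to 2984 (without M92KO replicate 1), of which 531 to 1545 were higher and 691 to 1439 lower. The study's steps called 1244 genes higher and 1043 lower, a share of 54.4% higher, against 44.1% in edgeR.

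In the calcium handling lists, adjusted calls numbered 1 with DESeq2, 1 with the study's steps, 2 without both libraries and 0 to 4 with single libraries left out. At an unadjusted p-value of 0.05, higher genes numbered 4 with the study's steps, 17 without both libraries and 1 to 18 with single libraries left out. Lower genes numbered 3 with length offsets and 2 to 7 with single libraries left out. The count of 18 was without M92KO replicate 1, where 1545 of all 16058 genes tested were higher. Over all genes, 1244 of 34714 symbols were higher with the study's steps and 1282 of 15879 without both libraries, and 1026 were lower with length offsets.

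At an unadjusted p-value of 0.05, the fit with a replicate block gave 1 member (Atp2a2, log2 fold change -0.23) and 3 higher genes in the lists. Over all genes it gave 1691, of which 686 were higher, and after adjustment 2 genes over all and 0 members. With length offsets added to the block, 3 list genes were lower before adjustment. Over all genes 1673 were then called, of which 908 were lower, and 2 after adjustment. Deviations of same-numbered libraries correlated by 0.074, 0.045 and 0.015, under the 0.1 set for pairing, and not every library correlated best with its own number.

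The log2 fold change of Jph1 turned to 0.025 with length offsets, 0.023 with length and GC offsets and 0.021 with length offsets and the block, that of Ryr1 to 0.0074 with length and GC offsets, and that of Sln to -0.034 without both libraries. With single libraries left out, ranges that crossed 0 were -0.076 to 0.040 for Jph1, -0.020 to 0.20 for Sln, -0.048 to 0.38 for Casq2 and -0.29 to 0.011 for Pvalb. Ratios did so for Atp2a2 over Atp2a1 (-0.20 to 0.030), Casq2 over Casq1 (-0.037 to 0.63) and Pvalb over Atp2a1 (-0.13 to 0.075, and -0.075 with length offsets). The cause was not tested. Sln, with 23 to 37 counts, was the member most limited by depth.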
